A study of Mus musculus with 45 samples.

Results

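Hepatic expression of 10 genes of choline, methionine and one-carbon metabolism was examined in mice gavaged with 2,3,7,8-tetrachlorodibenzo-p-dioxin, abbreviated TCDD, a ligand of the aryl hydrocarbon receptor (AhR). The genes were chosen by name and matched to the files through their Ensembl identifiers. They were *Bhmt*, *Bhmt2*, *Chdh*, *Gnmt*, *Mat1a*, *Mat2a*, *Pemt*, *Cbs*, *Ahcy* and *Chka*, which are 10 of the 39179 genes in the count files. All 10 had more than 4 reads in at least 1 liver, the threshold for detection, and were therefore among the 17464 genes tested. Liver RNA of 45 female C57BL/6 mice was sequenced, with 5 mice in the sesame oil vehicle group and 5 mice in each of 8 TCDD groups, which received 30, 10, 3, 1, 0.3, 0.1, 0.03 or 0.01 μg/kg. Dosing started on postnatal day 28 and was repeated every 4 days for 28 days. The sample labels describe the mice as ovariectomized and also use the word daily, neither of which is in the methods of the study. Whole liver was homogenized, so fewer cells of a type and less RNA per cell cannot be told apart in any of the values below.

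These enzymes handle methyl groups. Methionine adenosyltransferase, encoded by *Mat1a* in hepatocytes and by *Mat2a* in most other cells, makes S-adenosylmethionine (SAM), the methyl donor of the cell. Methyltransferases such as *Gnmt* and *Pemt* use SAM and leave S-adenosylhomocysteine, which *Ahcy* splits into adenosine and homocysteine. Homocysteine is either turned back into methionine, by *Bhmt* with betaine as the methyl donor or by folate-dependent methionine synthase, or passed by *Cbs* to cysteine synthesis. Choline is a substrate of both *Chdh*, which starts its oxidation to betaine, and *Chka*, which starts its incorporation into phosphatidylcholine. *Pemt* makes phosphatidylcholine by a separate route, from phosphatidylethanolamine. The liver is known as the main site of methionine and betaine metabolism.

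The reads assigned to genes totaled 11767284 to 56509899 per liver (median 17225047). The AhR target gene *Cyp1a1* followed the dose labels, with a mean of 7.498 ± 6.325 reads per 1000000 reads on genes (CPM, with TMM-normalized library sizes) in the vehicle group, 828 ± 283 CPM at 0.1 μg/kg and 7627 ± 1186 CPM at 30 μg/kg (SD, n = 5 each). All 6 hepatocyte markers were detected in every liver. At 30 μg/kg 4 of them were lower, namely *Apoa1*, *Cps1*, *Ass1* and *Ttr*. *Ass1* was near the threshold (adjusted p = 0.0481) and was called under 3 of 7 other settings and in 33 of 45 fits that left out 1 mouse, and *Ttr* was called under 5 of 7 settings (adjusted p up to 0.234). Of the markers of other cells, 2 of 7 macrophage, 3 of 5 B and T cell, 2 of 6 stellate cell, 0 of 5 cholangiocyte and 3 of 5 endothelial genes were higher at 30 μg/kg, and none was lower (edgeR quasi-likelihood test, Benjamini-Hochberg adjusted p under 0.05). Of all genes, 15.5% were higher and 14.1% lower at this dose. The 2 macrophage calls, *Csf1r* and *Cd68*, were lost with adjustment over all doses (edgeR, adjusted p = 0.0710 and 0.0613). Each was called in 43 of 45 fits that left out 1 mouse.

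All 10 genes are given on GRCm38 in the GENCODE M21 annotation. *Bhmt* (ENSMUSG00000074768, chr13:93616675-93637961) and *Bhmt2* (ENSMUSG00000042118, chr13:93655720-93674302) are neighbors on the minus strand of chromosome 13. *Chdh* (ENSMUSG00000015970, chr14:30009023-30040527) and *Mat1a* (ENSMUSG00000037798, chr14:41105035-41124412) lie on the plus strand of chromosome 14. *Gnmt* (ENSMUSG00000002769, chr17:46725664-46729168) and *Cbs* (ENSMUSG00000024039, chr17:31608894-31637238) lie on the minus strand of chromosome 17. *Mat2a* (ENSMUSG00000053907, chr6:72432799-72439558), *Pemt* (ENSMUSG00000000301, chr11:59970614-60046489) and *Ahcy* (ENSMUSG00000027597, chr2:155059310-155074497) are on the minus strand. *Chka* (ENSMUSG00000024843, chr19:3851773-3894369) is on the plus strand.

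The AhR binds DNA at the dioxin response element, whose core is GCGTG. The core was searched on both strands, as GCGTG or CACGC, in the 250 bases before the start of each RefSeq transcript. Promoters of 9 of the 10 genes could be matched by symbol. The core was present in 5 of these 9 genes (*Ahcy*, *Mat2a*, *Chdh*, *Gnmt* and *Chka*), against 30.9% of all 27025 genes with a promoter sequence, and was not found in the windows of *Bhmt*, *Bhmt2*, *Pemt* and *Cbs*. The sequences of *Chdh* and *Gnmt* are shown because both hold the core and the transcripts changed in opposite directions with dose. They are given 5′ to 3′ on the strand of the gene, from RefSeq on GRCm38.p6, in lower case with each match in capitals. A match is a string of letters and is not evidence of binding.
Chdh, chr14:30008750-30008999, plus strand: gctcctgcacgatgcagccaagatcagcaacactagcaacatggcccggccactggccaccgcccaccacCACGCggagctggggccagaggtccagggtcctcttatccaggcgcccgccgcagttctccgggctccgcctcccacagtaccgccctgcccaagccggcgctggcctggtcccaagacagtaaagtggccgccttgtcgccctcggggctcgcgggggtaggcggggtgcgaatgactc
Gnmt, chr17:46729166-46729415, minus strand: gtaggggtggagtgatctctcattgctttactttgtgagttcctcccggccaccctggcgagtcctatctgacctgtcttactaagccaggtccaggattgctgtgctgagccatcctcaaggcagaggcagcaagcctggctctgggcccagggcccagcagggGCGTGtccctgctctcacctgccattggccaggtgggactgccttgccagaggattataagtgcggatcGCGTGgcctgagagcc
The window of *Chdh* belongs to the first of its 3 listed starts, and the match in it began 180 bases before that start. The 2 matches in *Gnmt* began 85 and 16 bases before the start.

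The question of the design was which transcripts responded to TCDD, and from which dose. None of the 10 genes passed the test at any dose from 0.01 to 1 μg/kg, where 0, 0.0573, 0.0229, 0.464 and 1.76% of all genes did in order of dose. DESeq2 also called none of them at these doses. At an unadjusted p under 0.05 in edgeR, 1, 4, 0, 2 and 2 of them passed from the lowest dose up to 1 μg/kg, beside 10.1, 11.7, 5.15, 10.5 and 13% of all genes. At 3 μg/kg 1 gene passed, *Chdh*, which was higher (4.34% of all genes were higher, and 7.54% passed in either direction). At 10 μg/kg 4 genes passed, with *Chdh* higher and *Bhmt*, *Gnmt* and *Mat1a* lower (8.47% of all genes were higher, 7.47% were lower and 15.9% passed in either direction). At 30 μg/kg 6 genes passed, with *Chdh* higher (15.5% of all genes were higher) and *Bhmt*, *Gnmt*, *Mat1a*, *Pemt* and *Ahcy* lower (14.1% of all genes were lower, and 29.6% passed in either direction). No change that passed reached 2-fold, while 2.97%, 5.55% and 11.4% of all genes passed with a fold change of at least 2 at 3, 10 and 30 μg/kg. The median log2 fold change of the 10 genes at 30 μg/kg was −0.40, beside 0.02 for all genes tested.

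**Figure D1:**
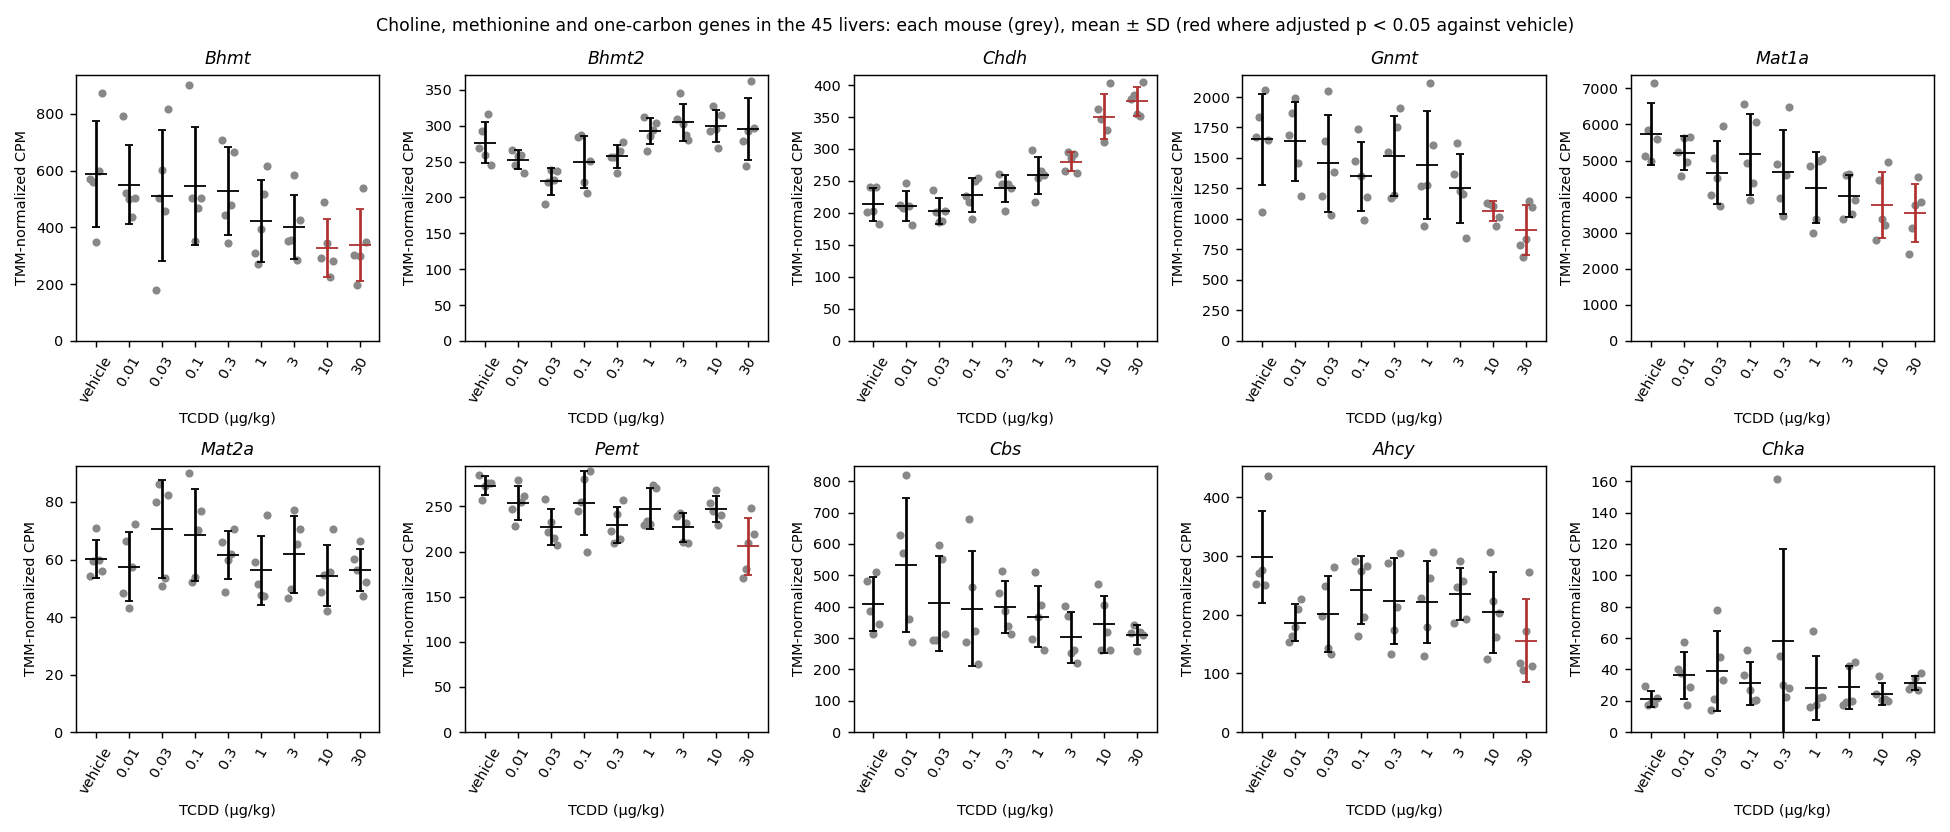
Each panel plots TMM-normalized CPM of 1 gene on the y axis, starting at 0, against the dose group on the x axis, with a grey point per mouse and the mean ± SD (n = 5) in black, or in red where the edgeR adjusted p against vehicle was under 0.05. *Chdh* climbed from a mean of 213.5 to 374.7 CPM while *Mat1a* went from 5739 to 3544 CPM, and the SD of *Chka* at 0.3 μg/kg runs below the axis because 1 mouse was at 161.7 CPM.

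Levels were compared between genes as CPM per kilobase of merged exons. In the vehicle group the SAM-making *Mat1a* was at 1655 ± 248 and the SAM-using *Gnmt* at 1370 ± 308 CPM per kb (SD, n = 5 each), and the 2 ranges of levels overlapped within their spread. *Pemt* followed at 130 ± 4.83, *Bhmt2* at 112 ± 11.5, *Ahcy* at 106 ± 27.9 and *Bhmt* at 102 ± 32.5 CPM per kb, of which *Bhmt2*, *Ahcy* and *Bhmt* were within 1 SD of one another and *Pemt* was above *Bhmt2* by more than 1 SD. Lower levels were found for *Cbs* (54.5 ± 11.4), *Chdh* (34.3 ± 4.13), *Mat2a* (13.4 ± 1.46) and *Chka* (1.75 ± 0.408 CPM per kb), and these 4 differed from each other by more than 1 SD. The levels of *Ahcy* and *Bhmt*, which share sequence with other genes, were divided by the full exon length, so they may be low estimates and their places in this order are uncertain. The order also depends on the annotation, because merged exons take in all annotated exons of a gene. They came to 7485 bases for *Cbs* and 2104 for *Pemt*. Before division by length, *Cbs* had a mean of 408 CPM in the vehicle group. That was above *Ahcy* (298), *Bhmt2* (276) and *Pemt* (273 CPM).

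Choline dehydrogenase, encoded by *Chdh*, oxidizes choline in mitochondria on the way to betaine, and *Chdh* was the 1 transcript of the 10 that passed the test in the upward direction. The 5 vehicle mice had 202, 240, 203, 240 and 183 CPM of *Chdh*. At 3 μg/kg the mice had 266, 295, 285, 292 and 263 CPM, at 10 μg/kg 363, 347, 311, 330 and 403 CPM, and at 30 μg/kg 378, 385, 354, 351 and 405 CPM. Every mouse at these 3 doses was above every vehicle mouse, a separation in either direction that 7.96%, 14.2% and 19.9% of all genes had at 3, 10 and 30 μg/kg, and 4 of 5 mice were already above all vehicle mice at 1 μg/kg. The log2 fold change was 0.28 ± 0.094 at 1 μg/kg (SE, adjusted p = 0.14, edgeR), 0.39 ± 0.094 at 3 μg/kg (adjusted p = 0.00616), 0.72 ± 0.095 at 10 μg/kg (adjusted p = 2.59e-07) and 0.81 ± 0.095 at 30 μg/kg (adjusted p = 6.87e-09). The step from 3 to 10 μg/kg was 0.32 on the log2 scale and did not pass the adjustment over all genes (edgeR, adjusted p = 0.112). The range of *Chdh* at 10 μg/kg overlapped that at 30 μg/kg. On the opposite strand *Cacna1d* covers 9.47% of the exon bases of *Chdh*, and whether the counting used strand is not given in the sources used here.

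*Mat1a* fell at the 2 highest doses. Vehicle mice had 5123, 5847, 4991, 7148 and 5587 CPM of *Mat1a*. The mice at 3 μg/kg had 3385, 4611, 4614, 3523 and 3908 CPM, those at 10 μg/kg 2786, 4462, 3380, 3226 and 4972 CPM, and those at 30 μg/kg 2411, 3136, 3777, 4537 and 3860 CPM. Every mouse at 3, 10 and 30 μg/kg was below every vehicle mouse, although at 10 μg/kg the gap was small (4972 against 4991 CPM). Non-overlap in either direction was found in 7.96%, 14.2% and 19.9% of all genes at 3, 10 and 30 μg/kg. The log2 fold change was −0.52 ± 0.18 at 3 μg/kg (SE, adjusted p = 0.0656, edgeR), −0.61 ± 0.18 at 10 μg/kg (adjusted p = 0.0147) and −0.70 ± 0.18 at 30 μg/kg (adjusted p = 0.00253). The call at 10 μg/kg was lost without vehicle mouse 4 (adjusted p = 0.0528), whose level was the highest in that group. *Mat2a* ranged from 54.3 to 71.1 CPM in the vehicle group and from 47.3 to 66.5 CPM at 30 μg/kg, with a log2 fold change of −0.09 ± 0.17 (adjusted p = 0.740). Of the exon bases of *Mat2a* 11.3% are also covered by *Particl* on the opposite strand.

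The transcripts of enzymes that use SAM or handle its product were lower at the highest dose. *Gnmt*, a glycine methyltransferase that consumes excess SAM in liver, was at 1671, 1832, 1056, 2057 and 1646 CPM in the vehicle mice. It was at 1129, 1120, 1104, 940 and 1015 CPM at 10 μg/kg and at 787, 686, 832, 1149 and 1099 CPM at 30 μg/kg. Vehicle mouse 3 was within the range of both doses, and the other 4 vehicle mice were above all 10 of these treated mice. The log2 fold change was −0.64 ± 0.20 at 10 μg/kg (SE, adjusted p = 0.0231, edgeR) and −0.86 ± 0.20 at 30 μg/kg (adjusted p = 9.69e-04). The call at 10 μg/kg was lost without vehicle mouse 2 or 4 or without mouse 4 or 5 at 10 μg/kg (adjusted p up to 0.0741).

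*Pemt*, the methyltransferase that makes phosphatidylcholine from phosphatidylethanolamine, differed little between vehicle mice, at 284, 257, 273, 276 and 275 CPM. At 30 μg/kg the mice had 170, 181, 210, 249 and 219 CPM, all below the vehicle range, and the log2 fold change was −0.41 ± 0.092 (SE, adjusted p = 6.63e-04, edgeR). All 5 mice at 3 μg/kg were also below the vehicle range, between 209 and 243 CPM, with a log2 fold change of −0.27 ± 0.092 (adjusted p = 0.0640), whereas at 10 μg/kg the range of 229 to 268 CPM overlapped it and the log2 fold change was −0.14 ± 0.092 (adjusted p = 0.317). Non-overlap in either direction was found in 7.96% of all genes at 3 μg/kg and in 19.9% at 30 μg/kg. *Pemt* was about as low at 2 lower doses as at 3 μg/kg. The log2 fold change was −0.27 at 0.03 and −0.25 at 0.3 μg/kg (edgeR, adjusted p = 0.240 and 0.293). In each of these 2 groups 4 of 5 mice were below the vehicle range. Up to 10 μg/kg the values of *Pemt* thus did not follow the order of the doses. When reads were scaled by library totals alone, the median of all genes at 30 μg/kg moved up by 0.21 on the log2 scale, and *Pemt* was no longer called (log2 fold change −0.20, adjusted p = 0.0611).

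*Ahcy*, the S-adenosylhomocysteine hydrolase, had the largest fitted decrease of the 10 genes at 30 μg/kg. The values of *Gnmt* (−0.86) and *Bhmt* (−0.81) lay within 1 SE of it, so the order of the 3 is uncertain. Vehicle mice had 253, 272, 277, 251 and 436 CPM of *Ahcy*, and mice at 30 μg/kg had 117, 106, 173, 272 and 112 CPM. Mouse 4 lay within the vehicle range and the other 4 were below it, with a log2 fold change of −0.93 ± 0.26 (SE, adjusted p = 0.00536, edgeR). With 1 mouse left out, the log2 fold change of *Ahcy* at 30 μg/kg ranged from −1.24 to −0.75 and the call remained. At the lowest dose, 0.01 μg/kg, the mice had 153, 164, 179, 210 and 227 CPM, all below the vehicle range, yet the log2 fold change of −0.67 ± 0.26 did not pass the adjustment (edgeR, adjusted p = 0.380). Non-overlap of this kind was found in 1.52% of all genes at 0.01 μg/kg, and over all 8 doses *Ahcy* had no call (adjusted p = 0.158). Its count is uncertain, because 68.7% of the 50-base stretches of its transcripts also occur in another gene, mostly in *Gm4737* (65.99%). Reads that matched several places were not counted, and *Gm4737* had 2481 to 4577 reads in the vehicle mice and 1876 to 4375 at 30 μg/kg, with a log2 fold change of −0.55 (adjusted p = 0.0675).

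*Bhmt*, the betaine-dependent homocysteine methyltransferase, was at 571, 559, 349, 598 and 873 CPM in the vehicle mice. The mice had 293, 491, 345, 224 and 281 CPM at 10 μg/kg and 301, 198, 299, 540 and 350 CPM at 30 μg/kg, so that the groups overlapped at both doses. The log2 fold change was −0.85 ± 0.30 at 10 μg/kg (SE, adjusted p = 0.0427, edgeR) and −0.81 ± 0.30 at 30 μg/kg (adjusted p = 0.0355). Both calls were close to the threshold. At 30 μg/kg the call was lost without any 1 of vehicle mice 2, 4 and 5 or of mice 1, 2 and 3 at 30 μg/kg (adjusted p up to 0.130), and at 10 μg/kg without any 1 of vehicle mice 1, 2, 4 and 5 or of mice 1, 3, 4 and 5 at 10 μg/kg (adjusted p up to 0.141). Adjustment over all doses removed both calls (adjusted p = 0.0850 at 10 and 0.110 at 30 μg/kg), as did scaling by library totals alone (0.0657 and 0.0878). In the test over all doses together the adjusted p was 0.111. Of its 50-base stretches 26.1% also occur elsewhere, mostly in *Gm5096* (24.1%), so the count of *Bhmt* leaves out part of the transcript. *Gm5096* had 1145 to 2634 reads in the vehicle mice and 924 to 2459 at 30 μg/kg. Its log2 fold change of −0.29 did not pass (edgeR, adjusted p = 0.471).

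*Bhmt2*, whose product uses S-methylmethionine as the methyl donor, was called over all doses together (adjusted p = 9.15e-04, edgeR) but at no single dose. Vehicle mice had 269, 293, 259, 316 and 245 CPM of *Bhmt2*. At 0.03 μg/kg they had 191, 222, 239, 224 and 236 CPM, all below the vehicle range, with a log2 fold change of −0.31 ± 0.093 (adjusted p = 0.171), a non-overlap seen in 2.79% of all genes at that dose. At 3 μg/kg they had 309, 346, 303, 287 and 280 CPM, with a log2 fold change of 0.14 ± 0.093 (adjusted p = 0.405). The group mean was lowest at 0.03 μg/kg and highest at 3 μg/kg. At 30 μg/kg the log2 fold change was 0.09 ± 0.093 (adjusted p = 0.481), and it was −0.0048 without mouse 4 of that group. Scaled by library totals alone, *Bhmt2* was called higher at 10 μg/kg (0.25, adjusted p = 0.0309) and at 30 μg/kg (0.30, adjusted p = 0.00384), and with adjustment over all doses it was called lower at 0.03 μg/kg (adjusted p = 0.0336).

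*Cbs* and *Chka* were not called at any dose. *Cbs*, which condenses homocysteine with serine in the first step toward cysteine, ranged from 314 to 512 CPM in the vehicle group and from 259 to 343 CPM at 30 μg/kg, with a log2 fold change of −0.40 ± 0.26 (SE, adjusted p = 0.257, edgeR). *Chka*, a choline kinase, was between 17.6 and 29.4 CPM in the vehicle group and between 26.7 and 37.4 CPM at 30 μg/kg, with a log2 fold change of 0.57 ± 0.44 (adjusted p = 0.347). The largest *Chka* value was at 0.3 μg/kg, where 1 mouse had 161.7 CPM and the other 4 had 22.6 to 48.4 CPM, and the log2 fold change there was 1.46 ± 0.44 (adjusted p = 0.157). When only the vehicle and 30 μg/kg groups entered the fit, both genes were called at 30 μg/kg (adjusted p = 0.0332 for *Cbs* and 0.00743 for *Chka*), and under no other setting tried at that dose. With adjustment over all doses *Chka* was called at 0.3 μg/kg (adjusted p = 0.0360).

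**Figure D2:**
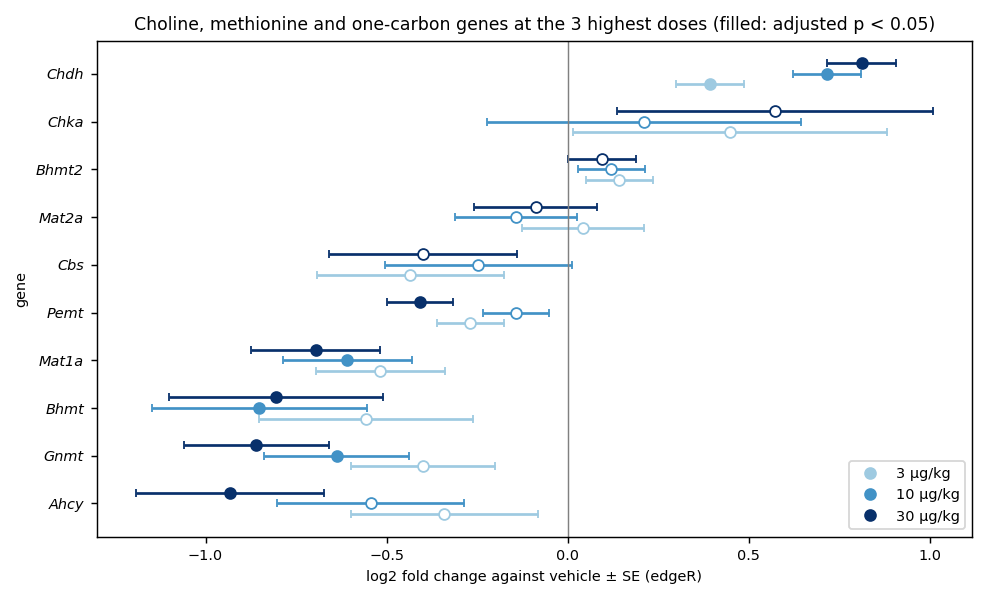
The log2 fold change against vehicle is on the x axis, with the SE from edgeR as bars, and the 10 genes are on the y axis in order of their value at 30 μg/kg, with 3, 10 and 30 μg/kg in light to dark blue and filled points where the adjusted p was under 0.05. *Chdh* is filled at all 3 doses from 0.39 to 0.81, and the filled points on the other side lie between −0.41 and −0.93.

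None of the 10 genes passed the test between neighboring high doses, from 1 to 3, 3 to 10 or 10 to 30 μg/kg, with either edgeR or DESeq2, and in edgeR 0.178%, 0.784% and 0.613% of all genes did. At an unadjusted p under 0.05, which 7.11%, 9.68% and 7.56% of all genes reached, none of the 10 passed between 1 and 3 μg/kg, *Chdh* was higher at 10 than at 3 μg/kg, and *Pemt* was lower at 30 than at 10 μg/kg (log2 difference −0.26, edgeR adjusted p = 0.274). *Pemt* passed that step without mouse 4 at 30 μg/kg. Over all 8 doses together 5 genes passed, *Chdh* (adjusted p = 1.87e-11), *Bhmt2*, *Gnmt* (0.00795), *Pemt* (0.0168) and *Mat1a* (0.0186), when 28.8% of all genes did.

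Mouse 4 of the 30 μg/kg group stood apart from the other 4. It had the highest level in its group of *Bhmt*, *Bhmt2*, *Gnmt*, *Mat1a*, *Pemt* and *Ahcy* and the lowest of *Chdh*, *Mat2a* and *Chka*. Its summed macrophage markers were at 138.5 CPM, against 257.5 to 418 CPM in the other 4 mice of the group and 156 to 248 CPM in the vehicle group. Its summed stellate cell markers were the lowest of the group as well, at 211 CPM against 230 to 335 CPM in the other 4, yet above the vehicle range of 92.2 to 113 CPM. Most of the stellate cell sum was *Reln*, with means of 54.5 CPM in the vehicle group and 178 CPM at 30 μg/kg. The summed B and T cell markers were at 14.99 CPM in mouse 4, 26.9 to 31.2 CPM in the other 4 and 7.82 to 14.1 CPM in the vehicle group, and the endothelial markers at 137 CPM, 166 to 217 CPM and 117 to 151 CPM. Cholangiocyte markers ranged from 52.98 to 70.2 CPM at 30 μg/kg and from 52.1 to 77.5 CPM in the vehicle group. The summed hepatocyte markers ranged from 104574 to 154818 CPM at 30 μg/kg and from 112349 to 147732 CPM in the vehicle group. Most of this sum was *Alb*, with means of 105534 CPM at 30 μg/kg and 111474 CPM in the vehicle group. *Alb* was not called (edgeR, adjusted p = 0.650), so the sum does not show the decreases of other hepatocyte markers. The part of the cell types in the levels of the 10 genes was not tested. Without mouse 4 all 6 calls at 30 μg/kg remained, with log2 fold changes of −1.24 for *Ahcy*, −1.05 for *Bhmt*, −0.97 for *Gnmt*, −0.82 for *Mat1a*, −0.50 for *Pemt* and 0.82 for *Chdh*.

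For 3 pairs of genes, ratios were formed within each library, so that they do not depend on library scaling. The log2 ratio of *Mat2a* to *Mat1a* reads had a mean of −6.57 ± 0.28 in the vehicle group and −5.95 ± 0.47 at 30 μg/kg (SD, n = 5 each), a difference of 0.62 (two-sided exact permutation test, p = 0.0556). The log2 ratio of *Bhmt2* to *Bhmt* was −1.04 ± 0.51 and −0.13 ± 0.32, a difference of 0.91 (exact permutation p = 0.0159). The log2 ratio of *Pemt* to *Chka*, which stand in the separate routes to phosphatidylcholine, was 3.72 ± 0.27 and 2.72 ± 0.28, a difference of −1.01 (exact permutation p = 0.00794, the smallest that 5 against 5 mice allow). The vehicle and 30 μg/kg groups did not overlap for this last ratio. Its difference from vehicle did not follow the order of the doses, being −0.81 at 0.01, −0.94 at 0.03, −0.60 at 0.1, −1.32 at 0.3, −0.39 at 1, −0.61 at 3 and −0.34 at 10 μg/kg, and at 0.3 μg/kg the exact permutation p was also 0.00794. After adjustment over the 24 tests of 3 ratios at 8 doses, the p-values became 0.148, 0.0952 and 0.0952, so that none passed.

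**Figure D3:**
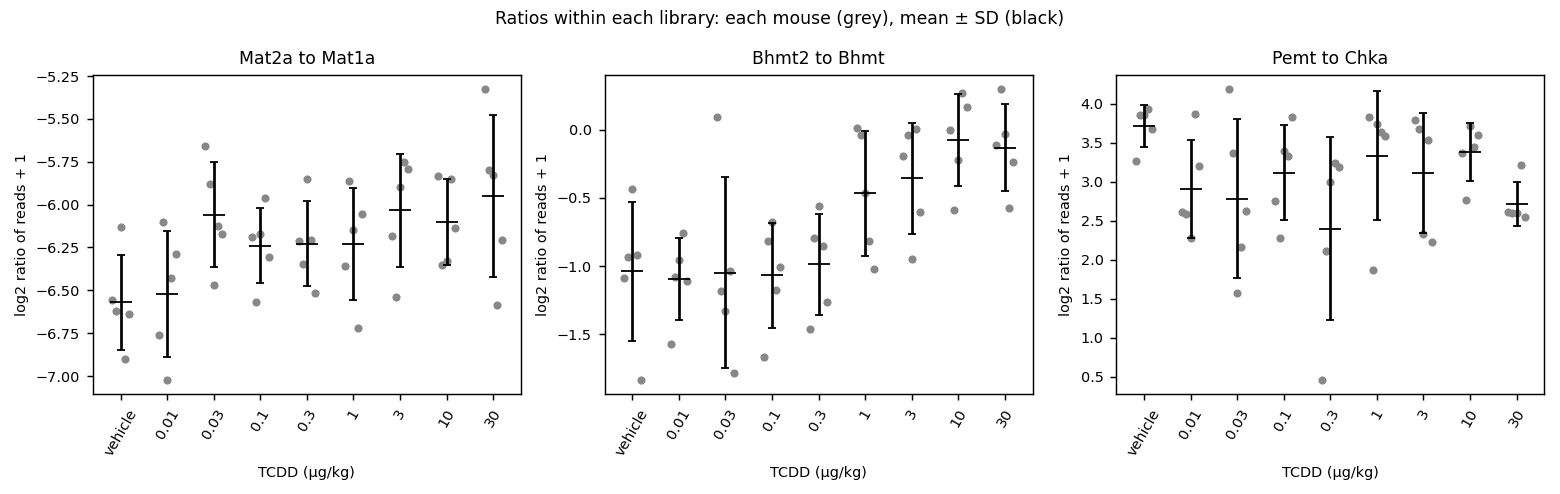
The y axes show the log2 ratio of reads, with 1 added to each count, of *Mat2a* to *Mat1a*, *Bhmt2* to *Bhmt* and *Pemt* to *Chka*, and the x axes the dose group, with a grey point per mouse and the mean ± SD (n = 5) in black. The *Pemt* to *Chka* ratio lies between 2.55 and 3.22 at 30 μg/kg, below the vehicle range of 3.27 to 3.94, and is widely spread at 0.3 μg/kg.

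The genes differed in how much mice of 1 group varied. The median SD of log2 CPM within groups was 0.12 for *Bhmt2*, 0.12 for *Pemt* and 0.14 for *Chdh*, and 10.3%, 11.95% and 20.4% of 11013 genes with a mean of at least 50 reads had a smaller one. It was 0.32 for *Gnmt*, 0.32 for *Mat1a*, 0.28 for *Mat2a* and 0.38 for *Cbs*. It was highest for *Bhmt* (0.47), *Ahcy* (0.47) and *Chka* (0.64), and 98.0% of genes varied less than *Chka*.

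After each group mean was subtracted, mice high in *Cbs* were low in *Mat2a*, with a Pearson r of −0.82 (Spearman −0.83) over 45 livers. This pair is described because its r was the largest in absolute value among all pairs of the 10 genes. At 0.1 μg/kg the mice had 287, 679, 462, 322 and 219 CPM of *Cbs* and 90.2, 52.03, 53.96, 70.1 and 76.7 CPM of *Mat2a*. At 0.01 μg/kg they had 630, 570, 819, 360 and 289 CPM of *Cbs* and 48.3, 66.3, 43.3, 57.4 and 72.4 CPM of *Mat2a*. The mouse with the most *Cbs* had the least *Mat2a* in 5 of 9 groups, namely each dose from 0.01 to 0.3 μg/kg and 3 μg/kg, and not in the vehicle group or at 1, 10 and 30 μg/kg. *Ahcy* varied with *Mat1a* (r = 0.67) and against *Cbs* (r = −0.58), while *Bhmt2* varied with *Gnmt* (r = 0.66) and *Mat1a* (r = 0.64). *Bhmt* varied with *Mat1a* (r = 0.59) and *Bhmt2* (r = 0.58). These values describe pairs of genes measured in the same libraries, and no test was made of them. They were not compared with pairs of other genes.

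**Figure D4:**
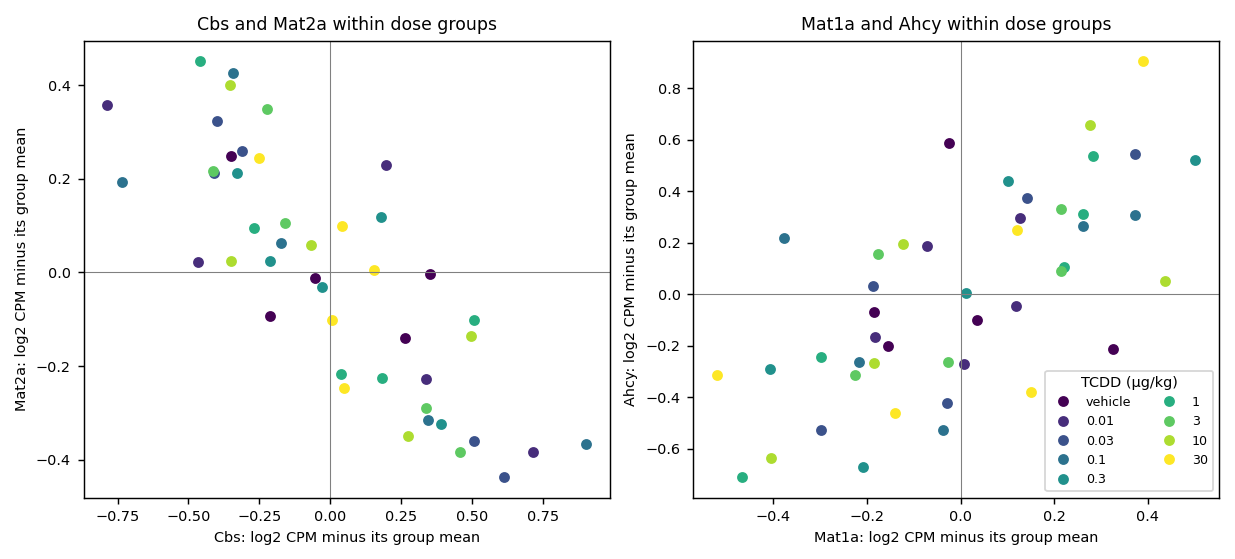
Each point is 1 of 45 livers, colored by dose, and both axes give log2 CPM minus the mean of its dose group, for *Cbs* against *Mat2a* on the left and *Mat1a* against *Ahcy* on the right. The left cloud runs downward (r = −0.82) and the right cloud upward (r = 0.67), with mice of all groups in both.

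The genes whose log2 CPM was most like that of each gene called over all doses were found among the 11013 genes over the 45 livers. They were *Cog4* (r = 0.92) and *Tbc1d16* (r = 0.91) for *Chdh*, *Gls2* (r = 0.89) and *Uroc1* (r = 0.85) for *Gnmt*, and *Aass* (r = 0.86) and *Asl* (r = 0.85) for *Mat1a*. They were *Aldh1l1* (r = 0.82) and *Aldh7a1* (r = 0.79) for *Bhmt2* and *Fxyd1* (r = 0.82) and *Tmem256* (r = 0.80) for *Pemt*. *Gls2* and *Uroc1* act in glutamine and histidine breakdown, *Aass* in lysine breakdown and *Asl* in the urea cycle, and *Aldh7a1* oxidizes betaine aldehyde, the product of choline dehydrogenase. The correlations include the shared dose groups and are given as a description.

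Related genes of the pathways were tested in 6 lists of 72 genes, all of which were detected. Of 16 other genes of the methionine cycle and transsulfuration, 1 rose and 7 fell at 30 μg/kg, with a median log2 fold change of −0.15. *Csad*, which makes hypotaurine on the way to taurine, went from 37.2 ± 11.4 to 12.04 ± 4.05 CPM (SD, n = 5 each, log2 fold change −1.63, adjusted p = 1.90e-04, edgeR), and was also called at 3 and 10 μg/kg (−1.68 and −1.94). *Suox*, a sulfite oxidase, had a log2 fold change of −0.98 and *Ethe1*, a sulfur dioxygenase, of −1.03. The call of *Ethe1* was lost without any 1 of 7 mice (adjusted p up to 0.108). *Gss*, glutathione synthetase, was the gene that rose, from 49.8 ± 5.54 to 83.4 ± 17.6 CPM (log2 fold change 0.74, adjusted p = 1.45e-05).

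Of 8 genes of choline oxidation and glycine breakdown, 1 rose and 1 fell, with a median of −0.20. *Pipox*, which oxidizes sarcosine, the product of *Gnmt*, was at 374 ± 27.4 CPM in the vehicle group and at 190 ± 41.5 CPM at 30 μg/kg (log2 fold change −0.98, adjusted p = 2.17e-08, edgeR). *Aldh7a1* had a log2 fold change of 0.38 (adjusted p = 0.00121). *Dmgdh* and *Sardh*, the dehydrogenases of dimethylglycine and sarcosine, did not pass, with log2 fold changes of −0.05 and −0.31 (adjusted p = 0.768 and 0.0539), and were named after their values were seen.

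Of 21 folate one-carbon genes, 2 rose and 4 fell, with a median of −0.03. *Shmt1*, the cytosolic serine hydroxymethyltransferase, fell from 292 ± 30.0 to 125.8 ± 18.1 CPM (log2 fold change −1.21, adjusted p = 5.25e-13, edgeR). *Slc25a32*, a mitochondrial carrier for folate, had a log2 fold change of −0.68. The call of *Slc25a32* was lost without any 1 of 3 mice (adjusted p up to 0.100). *Mthfd2*, a mitochondrial folate dehydrogenase, had a log2 fold change of 1.91 but was low throughout, at 0.570 ± 0.306 CPM in the vehicle group and 2.16 ± 1.13 CPM at 30 μg/kg.

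Of 13 genes of phosphatidylcholine synthesis and choline uptake, 2 rose and 5 fell, with a median of −0.16. *Etnk1*, an ethanolamine kinase, rose from 108 ± 16.0 to 230 ± 16.1 CPM (log2 fold change 1.09, adjusted p = 2.34e-09, edgeR) and was called from 3 μg/kg on. *Slc44a2*, a choline transporter-like gene, had a log2 fold change of 0.77. *Chpt1*, a cholinephosphotransferase, had a log2 fold change of −0.68, and *Pcyt2*, which activates phosphoethanolamine, of −0.52.

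Of 9 small-molecule methyltransferases, which use SAM, 1 rose and 3 fell, with a median of −0.25. *Inmt*, an N-methyltransferase, had the largest change of the 72 genes, from 1328 ± 117 to 223 ± 89.6 CPM (log2 fold change −2.57, adjusted p = 1.93e-10, edgeR), and its value was −0.82 at 3 and −1.52 at 10 μg/kg, both of which passed. *As3mt*, an arsenite methyltransferase, had a log2 fold change of −0.95 and *Gamt*, which makes creatine, of −0.86. Of 5 polyamine genes 1 rose, *Sat1*, a spermidine acetyltransferase, with a log2 fold change of 0.43 (adjusted p = 0.00324). In each of these lists the shares called are to be read beside the 15.5% of all genes that were higher and the 14.1% that were lower at this dose.

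**Figure D5:**
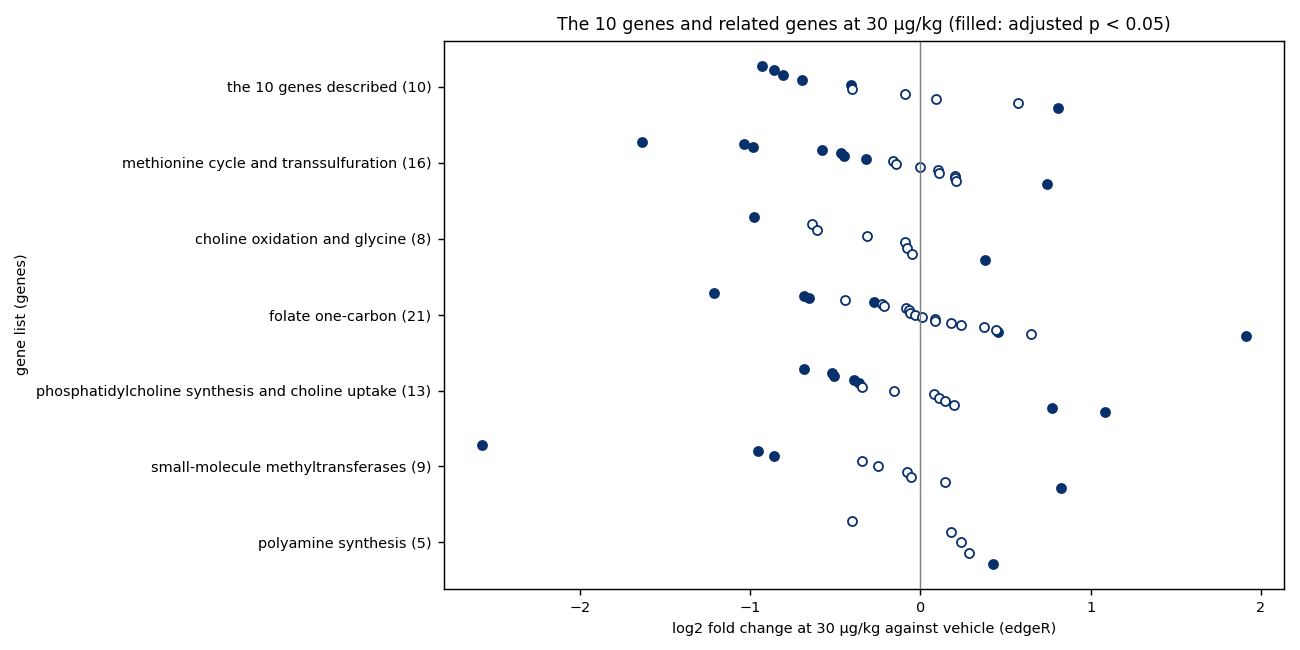
The x axis gives the log2 fold change at 30 μg/kg against vehicle from edgeR and the y axis the 10 genes described and the 6 lists of related genes, with 1 point per gene, filled where the adjusted p was under 0.05. Filled points lie on both sides of 0 in all lists but polyamine synthesis, with *Inmt* at −2.57 and *Mthfd2* at 1.91 as the extremes.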

How the data were processed

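Per the labels and the methods of the study, the authors prepared libraries with an Illumina TruSeq RNA kit, aligned reads to GRCm38 with TopHat 1.4.1 and counted them on Ensembl genes with HTSeq 0.6.1 (versions from the submitters' processing notes). The strand setting of the counting is not given in the sources used here. The deposited values are raw read counts per gene and mouse, without normalization. The 5 rows that name no gene were left out of library sizes (reads on no gene were 9.11 to 17.1% and ambiguous reads 1.34 to 2.07% of uniquely aligned reads). Symbols were found for 37607 of 39179 genes.

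Genes with more than 4 reads in any sample were tested with edgeR 4.0.16 in R 4.3.3 (TMM normalization, quasi-likelihood test, 1 coefficient per group, all 45 mice in 1 fit, Benjamini-Hochberg adjustment within each dose, called under 0.05). No 2 files were identical. Each group holds 5 mice, and their numbers are an order only. Log2 CPM used a prior count of 2. Ratios were compared with exact permutation tests over all splits of the mice (Python 3.11.15, numpy 2.4.6). The script was tested on simulated data. There a 1.5-fold change was called in 56% of 50 genes at 3 μg/kg and in 52% of 50 at 30 μg/kg. A gene that was not called may therefore still have changed. Shared 50-base stretches were counted over GENCODE M21 transcripts, a later annotation than the one used for counting, and promoter sequences came from RefSeq.

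Named genes were the 10 genes, up to 4 genes per list with the largest absolute log2 fold change at 30 μg/kg among those called, *Cyp1a1*, and the 2 genes most like each of the 10 genes called over all doses. Some genes that meet this rule are not reported here. The genes, lists and tests were chosen with earlier results of these data known. Alternatives were another scaling, other filters, only 2 groups in the fit, adjustment over all doses, DESeq2 1.42.0, a 2-fold threshold and each mouse left out. The libraries were pooled at random for sequencing, and the pools are not in the labels, so no comparison within pools was made.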

Additional observations from a re-analysis of the deposited data

Results flagged for a closer look

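Levels of the 10 genes were checked for single mice far from the other 4 of their group by Dixon's criterion in 90 sets of 5 mice, of which chance alone picks about 1 in 20. There were 5 such mice, all of them the highest of their group. *Ahcy* was at 436.3 CPM in vehicle mouse 5, where the other 4 were between 250.8 and 277.1 CPM. *Chka* was at 161.7 CPM in mouse 1 at 0.3 μg/kg (others 22.58 to 48.35 CPM) and at 64.33 CPM in mouse 2 at 1 μg/kg (others 15.99 to 22.36 CPM). *Bhmt* was at 792.2 CPM in mouse 1 at 0.01 μg/kg (others 438.3 to 520.8 CPM) and at 902.7 CPM in mouse 1 at 0.1 μg/kg (others 352.5 to 504.3 CPM).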

How the results depend on the processing

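The count of genes called at 3 μg/kg was 1, and it was 2 with only the 2 groups in the fit, 3 with DESeq2 and 0 with a 2-fold threshold, which also gave 0 at 10 (main value 4) and at 30 μg/kg (main value 6). Adjustment over all doses gave 1 gene at 0.03 μg/kg (*Bhmt2*) and 1 at 0.3 μg/kg (*Chka*), and removed *Bhmt* at 10 and 30 μg/kg (adjusted p = 0.0850 and 0.110). Scaling by library totals alone gave 1 gene at 1 μg/kg and 1 from 3 to 10 μg/kg (*Chdh* in both) and 2 over all doses, turned *Mat2a* at 30 μg/kg to 0.13, called *Bhmt2* at 10 and 30 μg/kg (0.25 and 0.30), and removed *Bhmt* at 10 and 30 μg/kg (adjusted p = 0.0657 and 0.0878), *Pemt* at 30 μg/kg and *Gnmt* at 10 μg/kg (adjusted p = 0.0611 and 0.0572). It moved the median of all genes by 0.21 on the log2 scale at 30 μg/kg. Leaving out single mice gave a count of 1 to 2 at 3 μg/kg (*Pemt* was added without mouse 4 at 0.1 μg/kg, mouse 2 at 3 μg/kg or mouse 4 at 30 μg/kg), 1 to 4 at 10 μg/kg (1 without vehicle mouse 4, and 2 without vehicle mouse 2 or without mouse 4 or 5 at 10 μg/kg), 5 to 6 at 30 μg/kg, 5 to 7 over all doses and 0 to 1 from 10 to 30 μg/kg. With a mouse left out, *Bhmt2* at 30 μg/kg ranged from −0.0048 (without mouse 4 of that group) to 0.16 (without mouse 2). The ratio differences ranged over 0.47 to 0.78, 0.71 to 1.06 and −1.13 to −0.95. The causes of these moves were not tested. *Chdh* at 3, 10 and 30 μg/kg and *Gnmt*, *Mat1a* and *Ahcy* at 30 μg/kg kept direction and call under all alternatives except the 2-fold threshold. No paired analysis was possible because the labels give the mice no replicate numbers shared between groups. Genes with few reads, such as *Mthfd2*, have the least precise values.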
